A study of Mus musculus with 15 samples.

Results

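The 9 genes described here, Pparg, Bhlhe40, Bhlhe41, Cebpa, Cebpb, Maf, Spi1, Klf4 and Zeb2, encode transcription factors known from work on macrophages, most of them from the alveolar macrophage of the lung. They were found by symbol in a count table of 40510 mouse genes, where each symbol matched 1 Ensembl gene. All 9 passed the low-count filter that left 13284 genes for testing. The table covers 15 RNA sequencing libraries of alveolar macrophages washed from the airways (bronchoalveolar lavage) and sorted as CD45+ Ly6G- SiglecF+ CD11c+ cells. The 5 groups of 3 libraries were CD11b-high cells of Cybb knockout (KO) mice at 12 weeks of age, CD11b-low cells of KO mice at 12 weeks, CD11b-low cells of wild-type (WT) mice at 12 weeks, CD11b-low cells of KO mice at 4 weeks and CD11b-low cells of WT mice at 4 weeks. All mice were C57BL/6 and naive, and the KO label also names chronic granulomatous disease (CGD), the human immune deficiency that loss of this gene models. Cybb encodes the catalytic subunit of the phagocyte NADPH oxidase. Each library pooled about 50000 cells from 2 to 3 mice of a group, so the spread given below is between pools and not between mice, and CD11b-high WT cells were not analysed here.

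Alveolar macrophages settle in the lung before and around birth and then maintain themselves locally, under the control of GM-CSF and TGF-beta from their surroundings. GM-CSF induces PPARG, a lipid-sensing nuclear receptor without which these cells do not mature and surfactant lipid accumulates. PU.1, the product of Spi1, and the C/EBP factors set up the macrophage programme, BHLHE40 and BHLHE41 are E-box repressors that favour self-renewal, and c-MAF, the product of Maf, restrains self-renewal and is low in mouse alveolar macrophages.

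Library totals ran between 22856331 and 36458893 counts (median 32415469). As a check of the labels, the targeted gene Cybb had 129 to 221 CPM (counts scaled to the library total and, by TMM, for library composition) in the 9 KO libraries, against 898 to 2318 CPM in the 6 WT libraries. Of 26 alveolar macrophage identity genes none was at 0 in any group, and together they made up 116200 to 227000 CPM by library total. The lysozyme gene Lyz2 was the highest of them in every library but 4-week WT replicate 3, where Chil3 was. In 12-week libraries Lyz2 alone held 6.30 to 10.6% of all counts, so the sum rests in large part on that gene. Replicate 1 of the 12-week WT group stood apart from its own group. Its counts differed from replicates 2 and 3 with a chi-square per degree of freedom of 413 and 371, against 68.7 between replicates 2 and 3, and the pairs of the other groups ran between 20.1 and 261. Where the text gives a test of the 9 genes that uses this group, it is therefore given with and without that library. Most counts and medians of gene lists that change are given both ways too. Red cell transcripts also moved with genotype, with 7 erythroid markers summing to 49.5 to 171 CPM (by library total, as all summed levels here) in the 9 KO libraries, 494 to 1356 CPM in 12-week WT and 1812 to 8333 CPM in 4-week WT libraries, and their part in the results below was not tested. In sorted bulk RNA, fewer cells of a type and less RNA per cell cannot be told apart.

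Read per length (RPKM, with exon lengths from the mouse annotation), 3 of the 9 genes stood well above the rest. Over all 15 libraries Pparg averaged 125 RPKM, above 96.7% of 13280 genes with a length, Bhlhe40 averaged 113 RPKM (above 96.4%) and Bhlhe41 64.1 RPKM (above 94.0%). Cebpa, Cebpb, Klf4 and Spi1 formed a middle tier at means between 10.01 and 21.4 RPKM. Zeb2 averaged 2.13 RPKM, near the middle of all genes, and Maf was the lowest of the 9 at 0.250 RPKM, above 14.3% of genes.

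**Figure D1:**
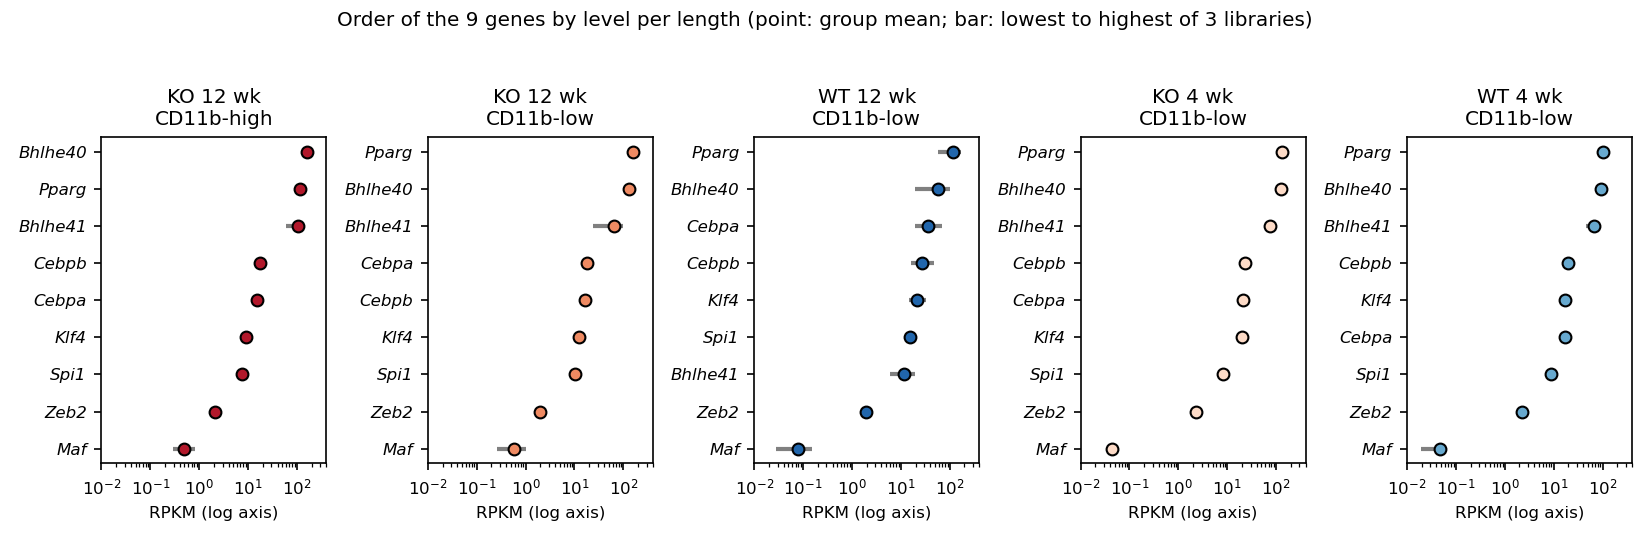
Group mean level of the 9 genes in RPKM on a log axis, ordered from high (top) to low in each group, with bars from the lowest to the highest of 3 libraries. Pparg, Bhlhe40 and Bhlhe41 lead in 4 groups, while in 12-week WT cells Bhlhe41 stands at rank 7.

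The order was nearly the same in all groups, with 1 exception. In 12-week CD11b-low WT cells Bhlhe41 averaged 11.8 ± 7.06 RPKM (SD, n = 3) and ranked 7 of 9. Its range of 6.05 to 19.65 RPKM overlapped that of its neighbour Spi1 (12.00 to 21.6 RPKM) and was apart from Zeb2 below it. In each of the other 4 groups Bhlhe41 ranked 3, between 63.0 ± 38.0 RPKM in 12-week CD11b-low KO cells and 104 ± 43.6 RPKM in CD11b-high KO cells. CD11b-high KO cells were the group in which Bhlhe40 (159 ± 16.4 RPKM) and not Pparg (115 ± 21.8 RPKM) ranked 1, and the ranges of these genes did not overlap there. Pparg and Bhlhe40 overlapped in each of the CD11b-low groups. Cebpa and Cebpb held neighbouring ranks with overlapping ranges in 4 groups, and in 4-week WT cells Klf4 ranked between them and overlapped both. Klf4 was apart from Cebpb above it in 12-week CD11b-low KO cells, and Spi1 was apart from the gene above it in both 4-week groups. The other neighbours of this tier overlapped. Zeb2 at rank 8 and Maf at rank 9 were apart from their neighbours in every group.

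**Figure D2:**
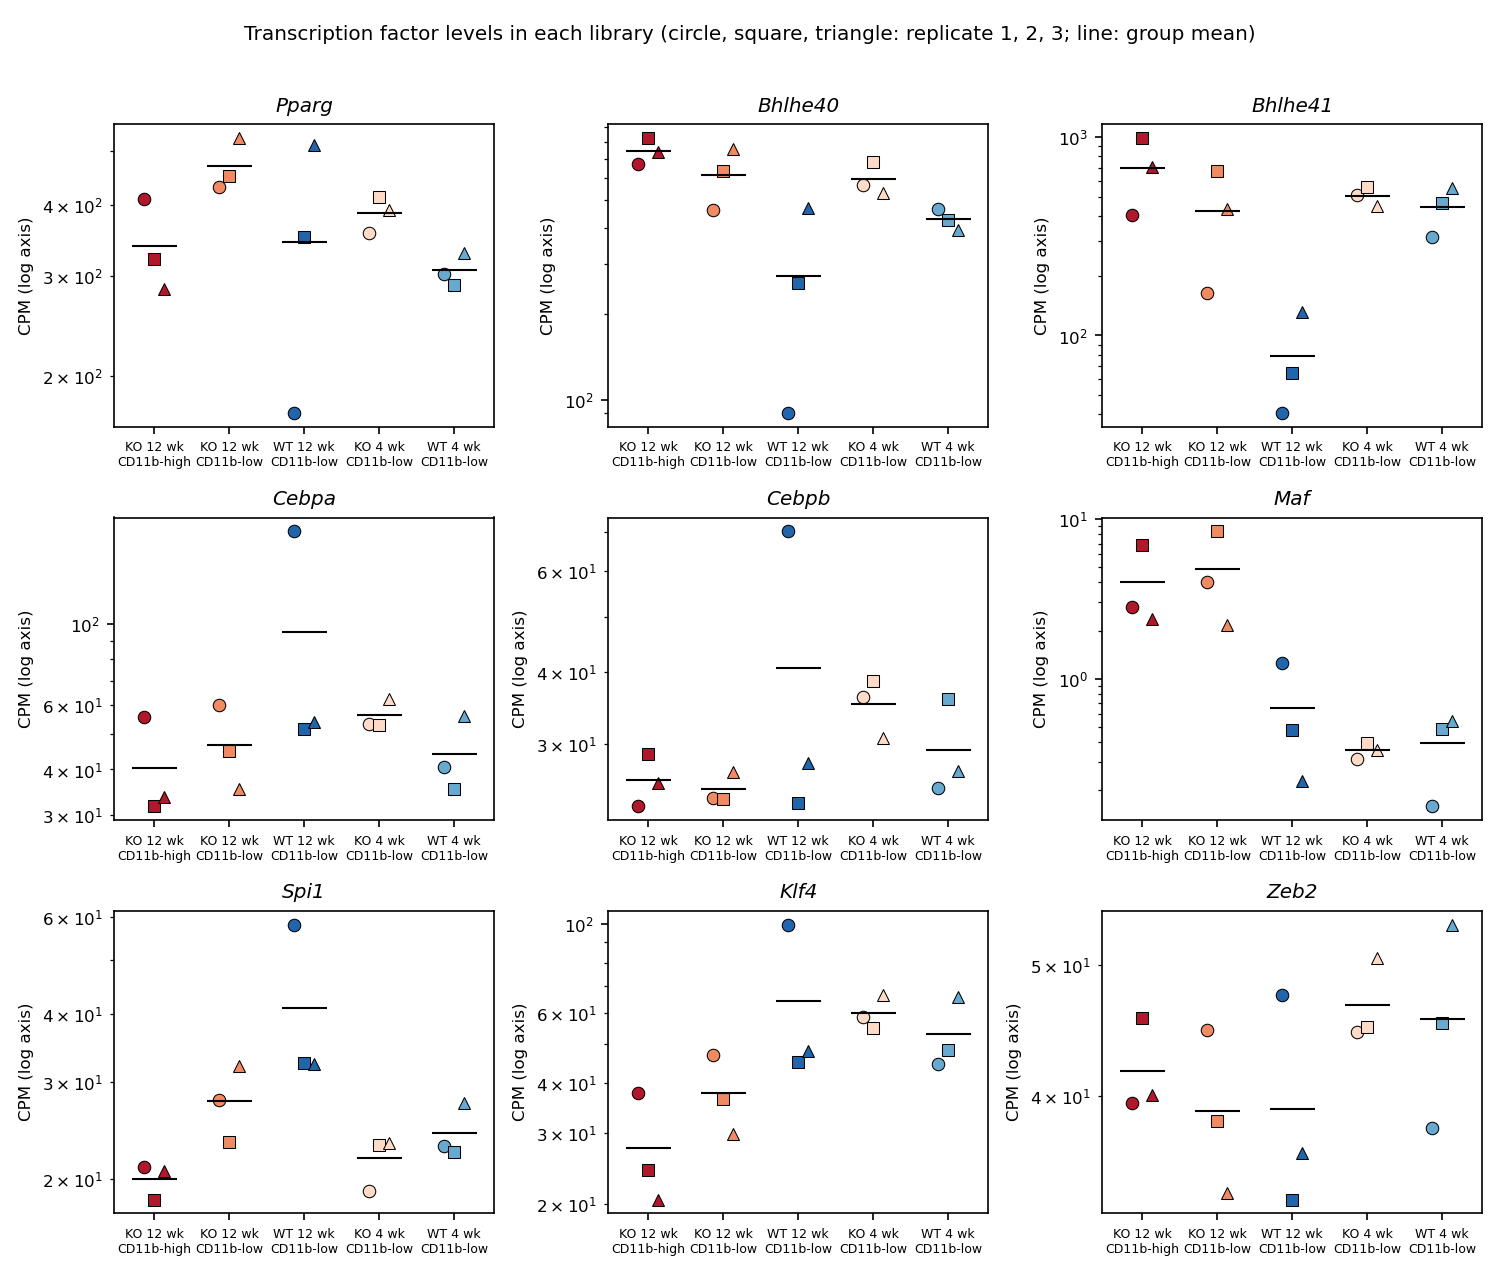
TMM-scaled CPM (log axis) of each gene in the 15 libraries, with replicates 1, 2 and 3 as circle, square and triangle and the group mean as a line. Bhlhe41 is lowest in the 3 libraries of 12-week WT cells, Maf is highest in the 6 libraries of 12-week KO cells, and replicate 1 of the 12-week WT group lies far from replicates 2 and 3 in most panels.

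Counted together, 2 of the 9 genes were higher and none lower in CD11b-low KO than WT cells at 12 weeks, in edgeR's quasi-likelihood test (Benjamini-Hochberg adjusted p under 0.05), where 3.1% of all tested genes were called. An unadjusted p under 0.05 was reached by 7 of the 9, among them Cebpa, Cebpb, Spi1 and Klf4 with lower values in KO cells. Over all 13284 tested genes it was reached by 2724. DESeq2 called 3 of the 9 and 880 genes in all. Without WT replicate 1 the edgeR count was 1 of the 9. The median log2 difference of the 9 was -0.004, against -0.042 over all genes. None passed between genotypes at 4 weeks (0.0979% of genes called; none at an unadjusted p under 0.05 and none by DESeq2; median 0.19). None passed between CD11b-high and CD11b-low KO cells (0.693% called; none at an unadjusted p under 0.05 and none by DESeq2; median -0.21). In CD11b-high KO against CD11b-low WT cells 3 were higher (Bhlhe41, Maf and Bhlhe40) and 3 lower (Klf4, Spi1 and Cebpa), where 14.8% of genes were called. Without WT replicate 1 that count was 4. Between 12 and 4 weeks 1 was higher in KO cells (Maf; 6.89% called), and 1 was higher (Spi1) and 1 lower (Bhlhe41) in WT cells (17.2% called), where 1 was left without WT replicate 1. No gene of the 9 passed the interaction of genotype and age in edgeR (0.248% called), where 5 had an unadjusted p under 0.05 and DESeq2 called 1, Bhlhe41. Over all 13284 tested genes 1103 had an unadjusted p under 0.05 in the interaction, and DESeq2 called 151. Groups without overlap, described for single genes below, were found for 17.8% of all tested genes between CD11b-low KO and WT cells at 12 weeks, 8.63% at 4 weeks, 13.8% between the KO fractions, 26.4% between CD11b-high KO and WT cells, and 38.6% in KO and 34.3% in WT cells between the ages. The comparison of CD11b-high KO with WT cells joins a difference of sort to a difference of genotype, which cannot be told apart there.

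**Figure D3:**
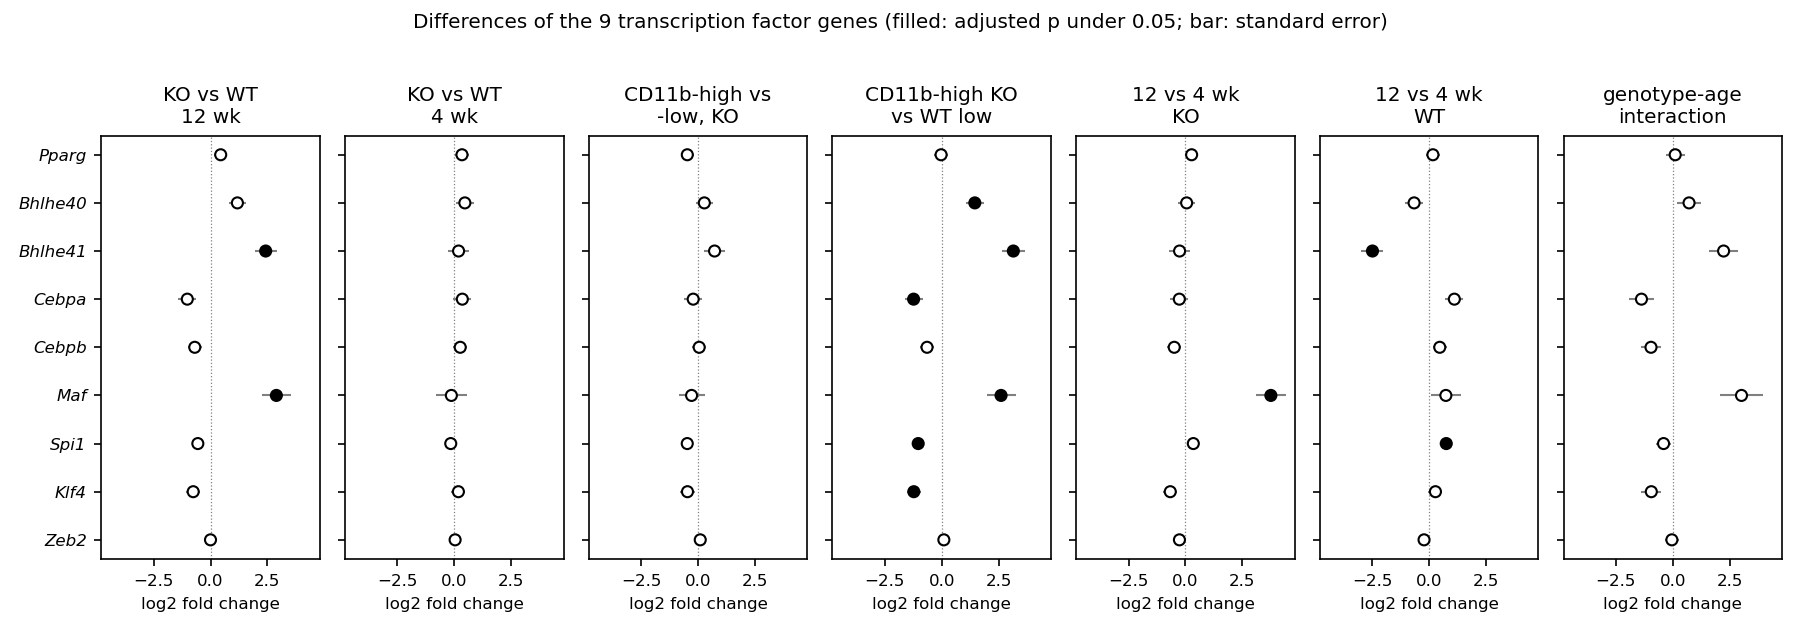
Log2 fold change of the 9 genes with its standard error in each of the 7 comparisons, filled where the edgeR adjusted p is under 0.05. The fourth panel, CD11b-high KO against CD11b-low WT cells, holds 6 filled points, and the panels for genotype at 4 weeks and for CD11b-high against CD11b-low KO cells hold none.

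Bhlhe41 (also known as Dec2 or Sharp1) and Bhlhe40 (Dec1) are the paired repressors that bind the E-box letters CACGTG, also bound by the circadian activators CLOCK and BMAL1. Bhlhe41 lies on the minus strand at chr6:145858243-145865558 and Bhlhe40 on the plus strand at chr6:108660629-108666925 (GRCm38). The windows around the start sites of Bhlhe41 and Klf4 are shown because both genes passed a test below and their windows hold these letters. Among 11 start-site windows of the 6 genes that could be matched, the E-box was present in 2, those of Bhlhe41 and Klf4, and in 7.15% of all 32851 windows of this length. The windows are printed 5′ to 3′ on the gene's strand, from 250 bases before to 50 bases after the start, with the E-box in capitals (RefSeq, GRCm38.p6; Bhlhe41 chr6:145865371-145865670 minus strand, Klf4 chr4:55532426-55532725 minus strand).
Bhlhe41: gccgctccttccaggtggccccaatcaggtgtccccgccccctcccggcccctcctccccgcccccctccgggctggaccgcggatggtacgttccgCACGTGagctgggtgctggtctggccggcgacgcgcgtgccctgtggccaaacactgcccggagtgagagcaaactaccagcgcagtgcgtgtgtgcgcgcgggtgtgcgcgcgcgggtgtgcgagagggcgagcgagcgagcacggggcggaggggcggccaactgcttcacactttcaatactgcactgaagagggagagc
Klf4: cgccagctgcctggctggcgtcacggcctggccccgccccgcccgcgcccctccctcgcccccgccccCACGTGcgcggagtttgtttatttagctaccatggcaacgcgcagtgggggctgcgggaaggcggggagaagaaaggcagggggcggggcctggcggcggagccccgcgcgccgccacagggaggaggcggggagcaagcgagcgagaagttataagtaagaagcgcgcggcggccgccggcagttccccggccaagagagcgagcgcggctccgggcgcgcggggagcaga
The E-box begins 153 bases before the start of Bhlhe41 and 182 bases before that of Klf4. Both strands were searched for 3 further motifs. The GC box GGGCGG was in 8 of the 11 windows (35.66% of all windows), the letters CCAAT in 4 (37.41%) and TATAAA in 3 (13.62%). By gene these were in 5, 3 and 3 of the 6, since Pparg and Zeb2 have several windows each and some windows of Zeb2 overlap. The Bhlhe41 window has 70.7% and the Klf4 window 74.3% G and C. These matches describe the letters in the windows only.

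Bhlhe41 was the clearest of the 9 in the comparison of genotypes at 12 weeks. It had 405, 990 and 707 CPM in CD11b-high KO cells (replicates 1, 2 and 3), 163, 674 and 433 CPM in CD11b-low KO cells, and 40.6, 64.4 and 132 CPM in CD11b-low WT cells. At 4 weeks it had 508, 558 and 449 CPM in KO cells and 313, 466 and 552 CPM in WT cells. The 3 libraries of 12-week WT cells lay below all 12 others, and the 4-week genotypes overlapped. In the edgeR quasi-likelihood test, CD11b-low KO cells at 12 weeks were 5.36-fold above WT (log2 difference 2.42, SE 0.48, adjusted p = 0.00934). Without WT replicate 1 the log2 difference was 2.11 (adjusted p = 0.0713), and without WT replicate 2 it was 2.29 (adjusted p = 0.0563), so the call is lost without either library. CD11b-high KO cells were 8.87-fold above CD11b-low WT cells (log2 difference 3.15, SE 0.50, adjusted p = 4.19e-04), also without WT replicate 1 (2.83, adjusted p = 0.00584).

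With age, Bhlhe41 fell in WT cells and was 5.62-fold lower at 12 than at 4 weeks (log2 difference -2.49, SE 0.48, adjusted p = 0.00458, and -2.17 with adjusted p = 0.0178 without WT replicate 1). In KO cells the log2 difference between the same ages was -0.26 (SE 0.46, adjusted p = 0.784), and between genotypes at 4 weeks it was 0.19 (SE 0.46, adjusted p = 1). The interaction of genotype and age, which tests the difference between these effects, was 2.23 (SE 0.65). It did not pass in edgeR (adjusted p = 0.248) and passed in DESeq2 (adjusted p = 0.0456). Without WT replicate 1 it was 1.92 (edgeR adjusted p = 0.483). These comparisons share libraries: the 12-week WT group enters 4 of the 7 comparisons, and the 12-week CD11b-low KO group also 4.

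Bhlhe40 showed a smaller difference of the same sign. It had 672, 826 and 740 CPM in CD11b-high KO cells, 461, 632 and 753 CPM in CD11b-low KO cells, and 90.2, 257 and 469 CPM in WT cells at 12 weeks, and 567, 680 and 531 CPM in KO cells and 467, 428 and 394 CPM in WT cells at 4 weeks. CD11b-low KO and WT libraries overlapped at 12 weeks by the highest WT library, whereas the KO libraries all lay above the WT libraries at 4 weeks and the CD11b-high KO libraries all lay above the WT libraries at 12 weeks. Bhlhe40 was 2.74-fold higher in CD11b-high KO than in WT cells at 12 weeks (log2 difference 1.46, SE 0.39, adjusted p = 0.0185, and 1.03 with adjusted p = 0.0147 without WT replicate 1). That call was lost without CD11b-high replicate 2 (adjusted p = 0.0672) or WT replicate 2 (adjusted p = 0.0574). Between CD11b-low KO and WT cells it did not pass at 12 weeks (1.18, SE 0.39, adjusted p = 0.104, and 0.76 with adjusted p = 0.139 without WT replicate 1), though it did in DESeq2 (adjusted p = 0.0445) and without WT replicate 3 (1.83, adjusted p = 0.015). At 4 weeks the log2 difference was 0.46 (SE 0.38, adjusted p = 1).

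Set against each other per length, Bhlhe41 stood at 0.422, 0.839 and 0.669 of the Bhlhe40 level in CD11b-high KO libraries, 0.247, 0.746 and 0.402 in 12-week CD11b-low KO libraries, and 0.315, 0.175 and 0.197 in 12-week WT libraries. The ratio was 0.628, 0.575 and 0.593 in 4-week KO libraries, against 0.469, 0.762 and 0.981 in 4-week WT libraries. The lowest ratios were thus in 12-week WT cells, where 1 KO library (CD11b-low replicate 1) fell among them.

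Clock genes were examined beside this pair, since BHLHE40 and BHLHE41 act on the same E-boxes. Over 14 tested clock genes the median log2 difference between CD11b-low KO and WT cells at 12 weeks was 0.14 (0.22 without WT replicate 1), against -0.04 over all genes, and the number of calls in this list is not reported here. Nfil3, a repressor of the same circuit, was lower in CD11b-high KO than in WT cells (12.4 ± 2.52 against 33.3 ± 10.3 CPM, adjusted p = 0.00327, and 0.0109 without WT replicate 1). Per3, a period gene, was higher (5.36 ± 1.09 against 2.13 ± 0.735 CPM, adjusted p = 0.0345) and lost its call without that library (adjusted p = 0.0934; named after its values were seen). Nr1d1, which encodes the repressor REV-ERB alpha, averaged 39.9 ± 5.78 CPM in 12-week CD11b-low KO and 27.5 ± 27.5 CPM in WT cells (adjusted p = 0.603, and 0.984 without WT replicate 1).

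Pparg, on the plus strand at chr6:115360951-115490399 (GRCm38, as all positions here), was high in every library and did not pass the test in any comparison. It had 410, 322 and 284 CPM in CD11b-high KO cells, 432, 451 and 526 CPM in CD11b-low KO cells, and 172, 352 and 511 CPM in WT cells at 12 weeks. In 4-week mice it had 357, 415 and 393 CPM in KO cells and 302, 289 and 330 CPM in WT cells. The 3 libraries of 12-week WT cells alone spanned a wider range than the 12 others together, with replicate 1 the lowest of all. KO libraries lay above WT libraries at 4 weeks without overlap, as did 12-week above 4-week KO libraries and CD11b-low above CD11b-high KO libraries at 12 weeks. The log2 difference between CD11b-low KO and WT cells was 0.44 at 12 weeks (SE 0.29, adjusted p = 0.394, and 0.12 without WT replicate 1) and 0.34 at 4 weeks (SE 0.29, adjusted p = 1). Between CD11b-high and CD11b-low KO cells it was -0.47 (SE 0.29, adjusted p = 0.674).

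Upstream of Pparg, none of 23 tested genes of GM-CSF and TGF-beta signalling passed between CD11b-low KO and WT cells at 12 weeks in edgeR (median log2 difference -0.08, with 5 at an unadjusted p under 0.05 and 0 called by DESeq2), and Csf2rb, the shared beta chain of the GM-CSF receptor, averaged 526 ± 78.6 CPM in KO and 383 ± 58.8 CPM in WT cells (adjusted p = 0.237, and 0.166 without WT replicate 1). Without that library the median turned to 0.255 and the count was 1, Csf2rb2 (log2 difference 0.92, adjusted p = 0.0381; named after its values were seen). Between CD11b-high KO and WT cells, where 14.8% of all tested genes were called, 4 were higher and 2 lower. Among them were Fnip1, a partner of folliculin in nutrient sensing (31.7 ± 7.93 against 13.9 ± 3.02 CPM, adjusted p = 0.00456), and Jak2, the kinase of the GM-CSF receptor (17.2 ± 7.42 against 7.76 ± 3.11 CPM, adjusted p = 0.029), both also past the threshold without WT replicate 1. Without that library 4 were higher and none lower, so both lower calls, Ski and Tgfb1, were lost (named after their values were seen).

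Of 15 tested PPARG partners and coregulators, 1 was higher in CD11b-low KO than WT cells at 12 weeks, the coactivator gene Ncoa3 (62.5 ± 24.6 against 30.0 ± 6.53 CPM, adjusted p = 0.0487, and 0.119 without WT replicate 1). The list's median log2 difference was -0.38, and -0.18 with no call without that library. Over all tested genes 3.1% were called in that comparison. Ncoa3 also fell in WT cells with age, at 30.0 ± 6.53 CPM at 12 weeks against 91.1 ± 10.8 CPM at 4 weeks (adjusted p = 0.00368, and 0.00692 without WT replicate 1). In KO cells 2 partners fell with age (6.89% of all tested genes called): Rxra, the obligate dimer partner of PPARG, was at 53.6 ± 11.2 CPM at 12 weeks against 104 ± 16.5 CPM at 4 weeks (adjusted p = 0.0273), and the corepressor gene Nrip1 at 23.3 ± 4.65 against 49.2 ± 7.20 CPM (adjusted p = 0.0171).

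Of 19 tested PPARG targets, 2 were higher and none lower in CD11b-low KO than WT cells at 12 weeks, with a median log2 difference of 0.25. Without WT replicate 1 the counts were 1 higher and 1 lower (median 0.29), the lower gene being Cidec (log2 difference -1.30, adjusted p = 0.0205). Scd1, a fatty acid desaturase, had 17.9 ± 3.42 against 7.67 ± 1.13 CPM (adjusted p = 0.0498, and 0.0676 without WT replicate 1). Pdk4, a kinase that turns cells from glucose towards fat oxidation and that was below the level set for naming, had 9.11 ± 1.34 against 2.92 ± 0.541 CPM (adjusted p = 0.00438, and 0.0168 without that library). Between CD11b-high KO and WT cells 4 targets were higher and 2 lower, and without WT replicate 1 the counts were 7 and 3. The fatty acid scavenger receptor Cd36 was 1470 ± 126 against 365 ± 201 CPM (adjusted p = 0.0016), and the lipid droplet gene Cidec was 150 ± 53.2 against 595 ± 268 CPM (adjusted p = 9.53e-04), both past the threshold without WT replicate 1 as well. With age, 5 targets rose and 2 fell in KO cells, and 3 rose and 5 fell in WT cells (also 3 and 5 without WT replicate 1). Fabp4, a fatty acid chaperone, rose in both: it had 714 ± 307 CPM at 12 weeks against 193 ± 64.9 CPM at 4 weeks in KO cells (adjusted p = 0.00924), and 451 ± 240 against 128 ± 14.3 CPM in WT cells (adjusted p = 0.00655, and 0.022 without WT replicate 1). Angptl4, a lipase inhibitor, and Cpt1a, which brings fatty acids into mitochondria, fell in both. Over all tested genes, 3.1% were called between CD11b-low KO and WT cells at 12 weeks and 14.8% between CD11b-high KO and WT cells. With age 6.89% were called in KO and 17.2% in WT cells. Calls over all genes also went in both directions in each of these comparisons, and Pparg itself did not pass in any.

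Maf, on the minus strand at chr8:115682942-115707794, was scarce, yet it was the other gene past the threshold between genotypes at 12 weeks. It had 2.81, 6.89 and 2.35 CPM in CD11b-high KO cells, 4.06, 8.38 and 2.15 CPM in CD11b-low KO cells, and 1.25, 0.477 and 0.228 CPM in WT cells. Among 4-week libraries Maf had 0.316, 0.395 and 0.359 CPM in KO cells and 0.159, 0.480 and 0.544 CPM in WT cells. All 6 libraries of 12-week KO cells, whose fractions were taken as pairs by replicate number, lay above all 9 others. Behind these levels stood 66 to 281 counts in 12-week KO libraries, 5 to 31 counts in 12-week WT libraries and 6 to 18 counts in 4-week libraries. CD11b-high KO cells were 6.10-fold above WT cells (log2 difference 2.61, SE 0.64, adjusted p = 0.0111, and 3.44 with adjusted p = 0.00509 without WT replicate 1), a call lost without CD11b-high replicate 2 (1.98, adjusted p = 0.0789). Maf was 7.42-fold higher in CD11b-low KO than WT cells at 12 weeks (log2 difference 2.89, SE 0.64, adjusted p = 0.0188). The value was 3.73 without WT replicate 1 (adjusted p = 0.016), but the call was lost without WT replicate 2 (2.70, adjusted p = 0.0748), WT replicate 3 (2.51, adjusted p = 0.0558) or KO replicate 2 (2.22, adjusted p = 0.121). In KO cells Maf was 13.5-fold higher at 12 than at 4 weeks (3.76, SE 0.66, adjusted p = 0.00313), and in WT cells the difference was 0.74 (SE 0.67, adjusted p = 0.484), and -0.10 without WT replicate 1 (adjusted p = 0.948). The interaction of genotype and age was 3.02 (SE 0.93) and did not pass in edgeR (adjusted p = 0.286, and 3.86 with adjusted p = 0.15 without WT replicate 1).

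T and NK cell transcripts were, like Maf, highest in 12-week KO libraries, as were those of other cell types given below. Summed over 20 T and NK cell markers, the level was 92.5, 228 and 102 CPM in CD11b-high KO libraries, 73.8, 175 and 61.6 CPM in CD11b-low KO libraries, and 5.46, 9.99 and 4.18 CPM in WT libraries at 12 weeks. At 4 weeks it ran between 2.68 and 5.28 CPM in KO and between 2.92 and 5.61 CPM in WT libraries. Replicate 2, whose fractions were taken as a pair, was the highest in both sorted fractions of KO cells for Maf and for the markers. Of 18 tested markers, 10 were higher and none lower in CD11b-low KO than WT cells at 12 weeks (7 without WT replicate 1), and 14 were higher in KO cells at 12 than at 4 weeks. Over all tested genes 3.1% and 6.89% were called in these comparisons. Cd3e, a chain of the T cell receptor complex, averaged 18.4 ± 12.1 CPM in KO and 0.461 ± 0.249 CPM in WT cells. No marker of the list was at 0 in all libraries of 12-week KO cells, against 1 (Ncr1) in 12-week WT cells 3 (Cd28, Cd8a and Ncr1) in 4-week KO cells and none in 4-week WT cells. Dendritic cell transcripts also had their highest sums in 12-week KO libraries. The 13 markers summed to 187, 653 and 273 CPM in CD11b-high KO, 162, 162 and 114 CPM in CD11b-low KO and 84.1, 87.2 and 73.7 CPM in WT libraries at 12 weeks, and to 55.6 to 71.1 CPM at 4 weeks. Eosinophil and neutrophil markers had the same split. The 6 eosinophil markers summed to 312 to 999 CPM in CD11b-high KO and 124 to 617 CPM in CD11b-low KO libraries at 12 weeks. In 12-week WT, 4-week KO and 4-week WT libraries they summed to 10.02 to 17.3, 16.4 to 39.25 and 19.6 to 30.0 CPM. The 13 neutrophil markers summed to 391 to 552, 183 to 234, 96.9 to 125, 143 to 177.5 and 135 to 172 CPM in the same order. The part of any of these transcripts in the Maf difference was not tested.

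**Figure D4:**
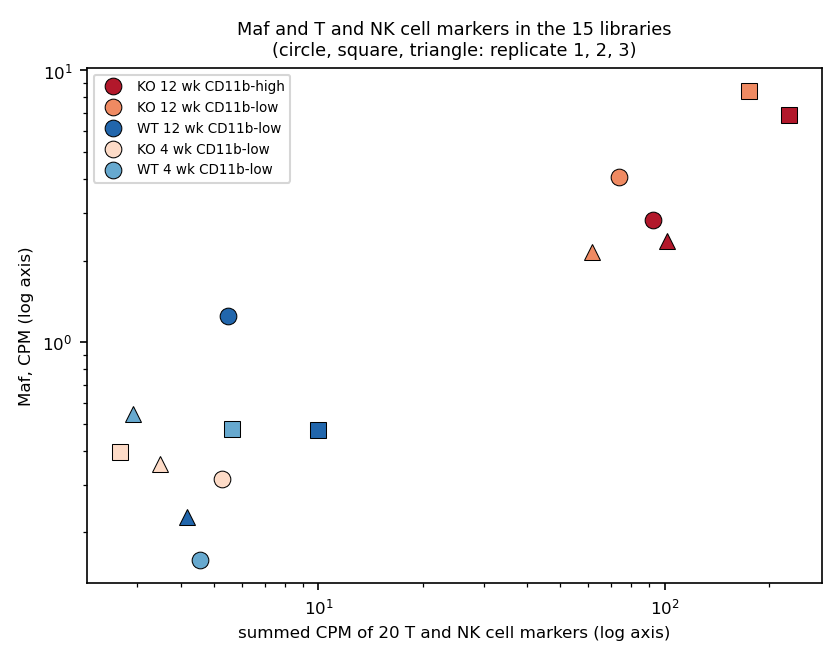
Maf (TMM-scaled CPM) against the summed CPM of 20 T and NK cell markers in each of the 15 libraries, both on log axes, with replicates 1, 2 and 3 as circle, square and triangle. The 6 libraries of 12-week KO cells stand apart at 2.15 to 8.38 CPM of Maf and 61.6 to 228 CPM of markers, and the other 9 lie at or below 1.25 CPM of Maf and 9.99 CPM of markers.

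The self-renewal network that c-MAF is known to restrain in mouse macrophages, with Myc and Klf2, gave none of 7 tested genes past the threshold between CD11b-low KO and WT cells at 12 weeks in edgeR (median log2 difference -0.39, and -0.44 with no call without WT replicate 1, with 3 at an unadjusted p under 0.05 and 0 called by DESeq2).

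Cebpa and Cebpb encode C/EBP alpha and beta, leucine zipper factors of the myeloid lineage, and C/EBP beta is required for normal alveolar macrophage numbers in mice. Cebpa lies on the plus strand at chr7:35119293-35121928. It had 55.6, 31.7 and 33.7 CPM in CD11b-high KO cells, 59.9, 45.0 and 35.3 CPM in CD11b-low KO cells, and 180, 51.5 and 53.9 CPM in WT cells at 12 weeks. The 4-week values were 53.2, 53.0 and 62.4 CPM in KO cells, against 40.6, 35.4 and 56.0 CPM in WT cells. WT replicate 1 at 12 weeks was the highest of the 15 libraries, and the 12-week groups overlapped with and without it. Cebpa was 2.35-fold lower in CD11b-high KO than WT cells at 12 weeks (log2 difference -1.24, SE 0.40, adjusted p = 0.0448). Without that library the difference was -0.39 (adjusted p = 0.354), the call was also lost without CD11b-high replicate 2 (adjusted p = 0.176) or 3 (adjusted p = 0.132), and in CD11b-low KO against WT cells it was -1.02 with all libraries (adjusted p = 0.164) and -0.17 without (adjusted p = 0.791). Between 12 and 4 weeks in WT cells Cebpa did not pass (1.11, SE 0.395, adjusted p = 0.0617, and 0.26 with adjusted p = 0.544 without 12-week replicate 1). It passed there without 12-week WT replicate 2 (adjusted p = 0.0346) or 3 (adjusted p = 0.0249).

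Cebpb lies on the plus strand at chr2:167688915-167690418 and overlaps Tmem189 on the other strand, which had 340 to 1004 counts per library, so its level may include reads of that gene or lose some to it. It had 23.4, 28.9 and 25.7 CPM in CD11b-high KO cells, 24.3, 24.2 and 26.9 CPM in CD11b-low KO cells, and 70.3, 23.7 and 27.9 CPM in WT cells at 12 weeks. At 4 weeks it had 36.2, 38.6 and 30.8 CPM in KO cells and 25.2, 36.0 and 26.9 CPM in WT cells. Apart from WT replicate 1 at 12 weeks, the libraries stayed between 23.4 and 38.6 CPM. Cebpb did not pass in any comparison, and its log2 difference between CD11b-low KO and WT cells at 12 weeks was -0.70 (SE 0.32, adjusted p = 0.227) with and -0.04 (adjusted p = 0.948) without that library. In KO cells the 12-week libraries lay below the 4-week libraries without overlap (-0.49, SE 0.32, adjusted p = 0.36).

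In a wider list of C/EBP genes, which also holds Trib1 and Trib3, 1 of 8 tested genes was lower in CD11b-low KO than WT cells at 12 weeks (3.1% of all tested genes called). This was Cebpd, an inflammation-induced member (1.96 ± 0.506 against 6.10 ± 2.63 CPM, adjusted p = 0.0188, and 0.0728 without WT replicate 1; below the level set for naming). It was also lower in CD11b-high KO than WT cells (1.62 ± 0.361 against 6.10 ± 2.63 CPM, adjusted p = 0.00225, and 0.00867 without that library). Ddit3, the stress-induced member CHOP, rose with age in KO cells (40.7 ± 16.9 CPM at 12 weeks against 13.6 ± 2.90 CPM at 4 weeks, adjusted p = 0.00942) and in WT cells (34.9 ± 13.9 against 14.6 ± 4.00 CPM, adjusted p = 0.0154, and 0.0523 without WT replicate 1).

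Spi1, on the plus strand at chr2:91082390-91115756, encodes PU.1, an ETS factor that the macrophage lineage requires. It had 21.0, 18.4 and 20.7 CPM in CD11b-high KO cells, 27.9, 23.3 and 32.1 CPM in CD11b-low KO cells, and 58.1, 32.5 and 32.4 CPM in WT cells at 12 weeks. The levels at 4 weeks were 19.0, 23.1 and 23.3 CPM in KO cells and 23.0, 22.4 and 27.5 CPM in WT cells. The 12-week groups did not overlap and stood in the order CD11b-high KO, CD11b-low KO and WT from low to high, also without WT replicate 1. Spi1 was 2.05-fold lower in CD11b-high KO than WT cells (log2 difference -1.03, SE 0.25, adjusted p = 0.00927, and -0.70 with adjusted p = 0.025 without WT replicate 1). Without CD11b-high replicate 2 it just missed (-0.98, adjusted p = 0.0504). CD11b-low KO cells were -0.56 from WT cells (SE 0.24, adjusted p = 0.209, and -0.22 with adjusted p = 0.596 without WT replicate 1). CD11b-high were -0.47 from CD11b-low KO cells (SE 0.24, adjusted p = 0.561). Spi1 rose in WT cells with age (0.75, SE 0.24, adjusted p = 0.041), but the call was lost without 12-week WT replicate 1 (0.42, adjusted p = 0.144) and without each 4-week WT replicate (adjusted p = 0.127, 0.132 and 0.0729), and in KO cells the value was 0.35 (SE 0.24, adjusted p = 0.402).

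None of 16 tested PU.1 targets passed between CD11b-low KO and WT cells at 12 weeks in edgeR (median log2 difference 0.24, and 0.03 with no call without WT replicate 1, with 5 at an unadjusted p under 0.05 and 2 called by DESeq2). Of 13 tested PU.1 relatives and partners, Spi1 included, none passed either (median 0.12, with 6 at an unadjusted p under 0.05 and 1 called by DESeq2). Without WT replicate 1 the relatives had a median of 0.25 and held 1 call, the haem-induced factor gene Spic (log2 difference 5.31, adjusted p = 0.0407; named after its values were seen). Between CD11b-high KO and WT cells, where 14.8% of all tested genes were called, 1 target was higher and 2 lower. The higher one, Itgam, encodes CD11b, the marker used for the sort, and is no finding there. The lower ones were the IgG receptor gene Fcgr1 (46.3 ± 9.88 against 149 ± 20.1 CPM, adjusted p = 7.49e-05) and the kinase gene Fes (40.8 ± 5.80 against 77.0 ± 13.9 CPM, adjusted p = 0.0079), both past the threshold without WT replicate 1 too. With age 5 targets rose in KO cells and none fell (6.89% of all tested genes called). In WT cells 5 rose and 1 fell (17.2% called), and 4 and 1 without WT replicate 1. The lysozyme gene Lyz2 rose in both, at 91600 ± 25000 CPM at 12 weeks against 34000 ± 1860 CPM at 4 weeks in KO cells (adjusted p = 0.00491), and 85700 ± 13500 against 31200 ± 3140 CPM in WT cells (adjusted p = 0.00405, and 0.00413 without that library).

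Klf4, on the minus strand at chr4:55527143-55532466, encodes a zinc finger factor of monocyte differentiation and alternative activation. It had 37.7, 24.3 and 20.5 CPM in CD11b-high KO cells, 47.1, 36.6 and 29.9 CPM in CD11b-low KO cells, and 99.8, 45.1 and 48.1 CPM in WT cells at 12 weeks. In 4-week cells Klf4 had 58.6, 55.1 and 66.5 CPM in KO cells and 44.8, 48.5 and 65.7 CPM in WT cells. CD11b-high KO libraries lay below all WT libraries, CD11b-low KO libraries overlapped WT libraries, and 12-week KO libraries lay below 4-week KO libraries. Klf4 was 2.34-fold lower in CD11b-high KO than WT cells (log2 difference -1.23, SE 0.31, adjusted p = 0.0144), and -0.77 without WT replicate 1 (adjusted p = 0.0581). The call was also lost without CD11b-high replicate 2 (adjusted p = 0.073) or 3 (adjusted p = 0.0656). CD11b-low KO cells were -0.76 from WT cells (SE 0.31, adjusted p = 0.181), and -0.30 without that library (adjusted p = 0.596). In KO cells the difference between 12 and 4 weeks was -0.67 (SE 0.31, adjusted p = 0.19).

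In the KLF family, none of 11 tested genes passed between CD11b-low KO and WT cells at 12 weeks in edgeR (median log2 difference -0.48, and -0.26 with no call among 12 genes without WT replicate 1, with 4 at an unadjusted p under 0.05 and 1 called by DESeq2). In CD11b-high KO against WT cells, where 14.8% of all tested genes were called, 3 were lower, namely Klf2, Klf4 and Klf7. Klf7 had 8.68 ± 1.66 against 23.8 ± 6.36 CPM (adjusted p = 0.00378) and Klf2 5.37 ± 1.21 against 13.4 ± 3.02 CPM (adjusted p = 0.0245), and both passed without WT replicate 1, where Klf6 took the place of Klf4 among the 3. Klf10, a TGF-beta-induced member, fell in WT cells with age (337 ± 164 CPM at 12 weeks against 692 ± 21.3 CPM at 4 weeks, adjusted p = 0.0485, and 0.0959 without WT replicate 1).

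**Figure D5:**
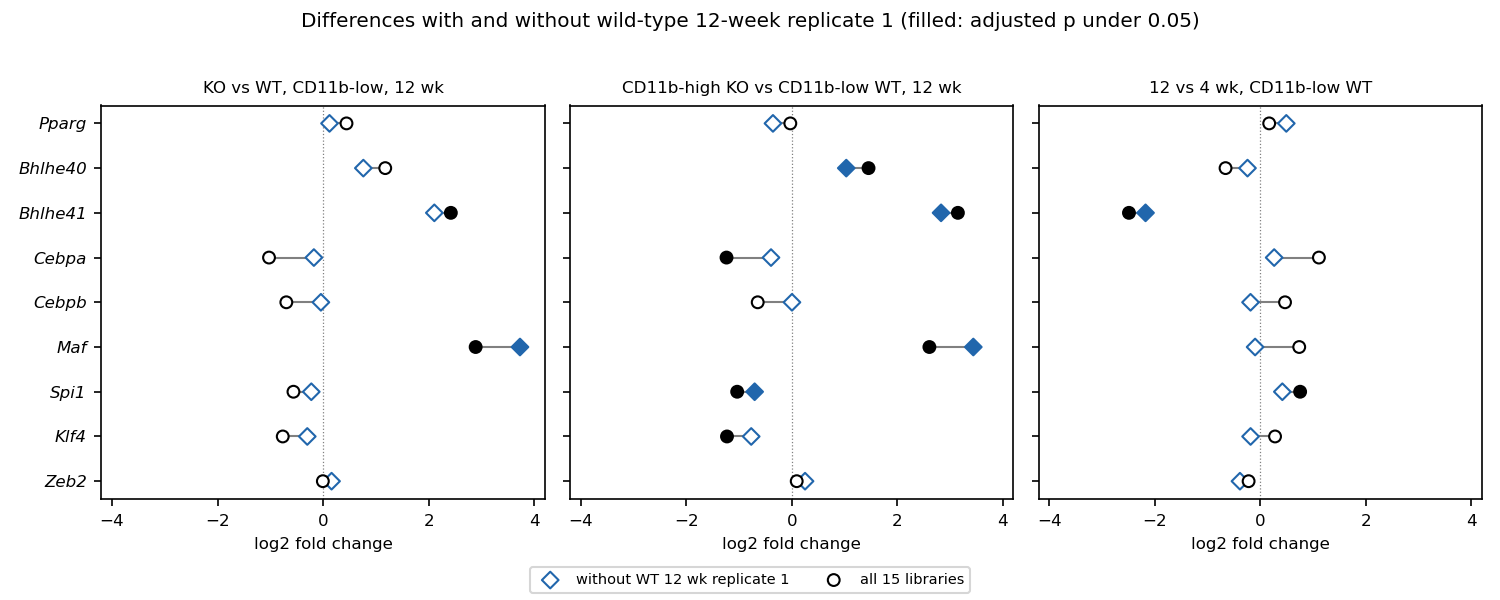
Log2 fold change of the 9 genes with all 15 libraries (black circles) and without replicate 1 of the 12-week WT group (blue diamonds) in 3 comparisons that use this group, filled where the adjusted p is under 0.05. Bhlhe41 stays filled in the middle and right panels, while in the middle panel Cebpa lies at -0.39 without the library, against -1.24 with it.

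Zeb2, on the minus strand at chr2:44983632-45117395 and known in mice as a zinc finger repressor that maintains the identity of tissue-resident macrophages, was the most even of the 9. It had 39.5, 45.7 and 40.0 CPM in CD11b-high KO cells, 44.8, 38.3 and 33.8 CPM in CD11b-low KO cells, and 47.5, 33.5 and 36.2 CPM in WT cells at 12 weeks. Zeb2 at 4 weeks had 44.6, 45.0 and 50.6 CPM in KO cells and 37.9, 45.3 and 53.6 CPM in WT cells. Every group overlapped every other, and the 15 libraries lay between 33.5 and 53.6 CPM. The largest of its log2 differences between 2 groups was -0.26, in KO cells between 12 and 4 weeks (SE 0.21, adjusted p = 0.481), and CD11b-low KO and WT cells at 12 weeks differed by -0.004 (SE 0.21), and by 0.16 without WT replicate 1. The antisense gene Zeb2os overlaps it and had 42 to 110 counts per library. Of 11 tested ZEB2 relatives and partners none passed between CD11b-low KO and WT cells at 12 weeks in edgeR (3 at an unadjusted p under 0.05 and 0 called by DESeq2). Id2, an inhibitor of E proteins, rose with age in KO cells (826 ± 230 CPM at 12 weeks against 356 ± 46.4 CPM at 4 weeks, adjusted p = 0.00912) and in WT cells (601 ± 96.8 against 327 ± 27.0 CPM, adjusted p = 0.0228, and 0.0315 without WT replicate 1).

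CD11b-high and CD11b-low KO cells of replicate numbers 1 and 2 deviated together (r = 0.669 and 0.598), so same-numbered libraries were also read in pairs. Number 3 was no clear match, as CD11b-high replicate 3 correlated at 0.191 with CD11b-low replicate 3 and 0.188 with replicate 2. Bhlhe41 was higher in the CD11b-high library of all 3 pairs, by 1.31, 0.56 and 0.71 on the log2 scale. Pparg (-0.07, -0.48 and -0.89), Spi1 (-0.41, -0.35 and -0.64), Klf4 (-0.32, -0.59 and -0.55) and Cebpa (-0.11, -0.50 and -0.07) were lower in all 3. Bhlhe40, Cebpb, Maf and Zeb2 had pairs of both signs. The share of all tested genes with the same sign in all 3 pairs was not computed, so these signs are a description only. With the pair as a block none of the 9 passed. Summed markers of other leukocytes were compared between the fractions as well. The sum of 13 neutrophil markers was 391 to 552 CPM in CD11b-high and 183 to 234 CPM in CD11b-low KO libraries. Of 8 tested neutrophil markers 2 were higher in edgeR and none lower (0.693% of all tested genes called between the fractions). For 6 eosinophil markers the sums overlapped, at 312 to 999 against 124 to 617 CPM, with Ear6 the highest in every library. None of 3 tested eosinophil markers was called (1 at an unadjusted p under 0.05 and 0 by DESeq2). The 13 dendritic cell markers summed to 187 to 653 against 114 to 162 CPM. None of 12 tested was called (8 at an unadjusted p under 0.05 and 1 by DESeq2). Over all tested genes 1332 had an unadjusted p under 0.05 between the fractions, and DESeq2 called 261. Over 18 markers of monocytes and macrophages derived from them, the sum was 720 to 1243 against 739 to 930 CPM, with 3 higher and none lower (median log2 difference 1.96): Itgam, the gene of the gate, and the complement genes C1qa and C1qb. Against WT cells 9 of these 18 were higher and none lower in CD11b-high KO cells (median 2.21, and 9 also without WT replicate 1), and 2 were higher in CD11b-low KO cells (1 without it). Over all tested genes 14.8% and 3.1% were called against WT cells. In 12-week WT libraries the neutrophil, eosinophil, dendritic and monocyte sums were 96.9 to 125, 10.02 to 17.3, 73.7 to 87.2 and 544 to 834 CPM. Ly6g and Epx were at 0 in both KO fractions, Camp, Elane and Il5ra in the CD11b-low one as well. Whether other cell types had a part in the values above was not tested.

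Across the 15 libraries, Bhlhe40 and Bhlhe41 ran together (Pearson r = 0.85 of log2 CPM), and Bhlhe41 ran against Spi1 (r = -0.85). Cebpa ran with Klf4 (r = 0.81) and Spi1 (r = 0.75), and against Bhlhe40 (r = -0.83). These are descriptions over libraries that share groups, and the library that stands apart enters each. Among 6395 genes with a mean of at least 10 CPM (predicted genes left out), the pattern most like Bhlhe41 was that of Plek (r = 0.98), followed by Gas2l3 and Soat1 (r = 0.97 and 0.96). The gene most like Pparg was Nr1d1 (r = 0.97), that most like Bhlhe40 was Tnfrsf26 (r = 0.96), with the PPARG target Cd36 at rank 3 (r = 0.95). Maf was most like Cxcr6 (r = 0.93), a chemokine receptor of T cells, and Ccl17 (r = 0.91). The nearest genes of the others were Zyx for Cebpa (r = 0.96), Alyref for Cebpb (r = 0.91), Hacd4 for Spi1 (r = 0.94), Mxd4 for Klf4 (r = 0.95) and Otud4 for Zeb2 (r = 0.94).

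Beyond the 9, none of 33 tested genes of other macrophage transcription factors passed between CD11b-low KO and WT cells at 12 weeks in edgeR (median log2 difference 0.07, with 6 at an unadjusted p under 0.05 and 2 called by DESeq2), and without WT replicate 1 the count was 1, again Spic (median 0.18). Between CD11b-high KO and WT cells, where 14.8% of all tested genes were called, 7 were higher and 1 lower (7 and 1 also without that library). Irf7, an interferon-induced factor, had 19.2 ± 5.32 against 4.08 ± 2.46 CPM (adjusted p = 0.00315), and Batf, an AP-1 factor, 56.4 ± 11.1 CPM against a mean of 119 CPM (adjusted p = 0.00246). Of the 26 alveolar macrophage identity genes, 1 was higher and 3 lower in CD11b-low KO than WT cells at 12 weeks (1 and 4 without WT replicate 1), where 3.1% of all tested genes were called. The cathepsin gene Ctsk had 4980 ± 1580 against 1030 ± 358 CPM (adjusted p = 0.00102), and the lipid-binding gene Fabp1 had 839 ± 117 against 2320 ± 913 CPM (adjusted p = 0.0095). Ear1 and Ear2, ribonucleases of near-identical sequence whose counts may be split between copies, were the other lower genes. All 4 of these passed without WT replicate 1.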

How the data were processed

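Alveolar macrophages sorted from lavage were profiled in 15 RNA sequencing libraries, 5 groups of 3. The values the authors deposited are raw counts per gene. STAR and featureCounts from the Subread package made them, per the submitters' processing notes. Versions, strand setting and genome build are not given in the sources used here, so genes that overlap another on the opposite strand are uncertain. Of 40780 rows, 270 repeated a gene with the same counts and were removed, leaving 40510 genes.

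Testing used edgeR 4.0.16 on limma 3.58.1 and R 4.3.3. The filter filterByExpr (minimum count 10, minimum total 15) left 13284 genes. TMM factors scaled the library totals, and CPM of genes use them, while summed markers are CPM of the library total. A robust quasi-likelihood fit with 1 coefficient per group over all 15 libraries (10 residual degrees of freedom) gave 7 comparisons, tested on both sides, with Benjamini-Hochberg adjustment over all genes tested and a threshold of 0.05. Every adjusted p is from this fit unless DESeq2 (1.42.0) is named. The depth, in the opening of the results, sets the counting error. The steps were tested on simulated data. RPKM used exon lengths from GENCODE M21 on GRCm38, which also gave positions, and start-site windows were read from RefSeq (GRCm38.p6). Likeness was Pearson's r of log2(CPM + 1) over 15 libraries. Replicates are separate pools of mice per the labels.

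The 9 genes and all gene lists were chosen with earlier results of these data known, so lists are given as counts and medians without a test of the list. Named list genes were up to 4 past the threshold by size of change (at least 10 CPM in the higher group), or 2 by level where none passed. Replicate numbers were taken as pairs for CD11b-high and CD11b-low KO cells, where the deviations of same-numbered libraries correlated at 0.669, 0.598 and 0.191, and for no other comparison. Alternatives were DESeq2, its size factors, no filter, a stricter filter (1 CPM), the compared groups alone, the replicate number as a block, and leaving out each library. The list counts without replicate 1 of the 12-week WT group were added after the data had been seen. Some list genes are not reported here.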

Additional observations from a re-analysis of the deposited data

How the results depend on the processing

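Over the alternatives planned for the 63 results of single genes (9 genes in 7 comparisons), 736 values kept their direction and side of the threshold, 26 lost a call, 15 gained one and 33 changed sign. In all 12 alternatives to each, these results passed: the lower Bhlhe41 at 12 than 4 weeks in WT cells (log2 difference -3.08 to -2.17), its higher level in CD11b-high KO than WT cells (2.81 to 3.73), and the higher Maf at 12 than 4 weeks in KO cells (3.13 to 4.11). No result that passed with all libraries changed sign.

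Counts of genes called depended on the settings, and the cause was not tested. Without the low-count filter they were 1090 for CD11b-low KO against WT cells at 12 weeks (412 as reported), 73 for the same contrast at 4 weeks (13), 533 between the CD11b-high and CD11b-low fractions of KO cells (92), 1395 for 12 against 4 weeks in KO cells (915) and 321 for the interaction (33). With the compared groups alone they were 189, 4 and 18 for the first 3 of these, 793 for CD11b-high KO against WT cells (1970), and 1646 in KO and 1123 in WT cells (2282) for 12 against 4 weeks. In the 5 comparisons named for the unfiltered fit, DESeq2 called 880, 24, 261, 1698 and 151 genes. Of the 9 genes, the unfiltered fit called 4 between genotypes at 12 weeks and 3 in the interaction, DESeq2 called 1 in the interaction, and the compared groups alone called 2 for CD11b-high KO against WT cells and 1 with age in WT cells.

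Leaving out 1 library at a time gave 230 to 426 genes (0 to 2 of the 9) for CD11b-low KO against WT cells at 12 weeks, 4 to 15 for the same contrast at 4 weeks, 2 to 247 between the KO fractions, 952 to 2099 (1 to 6 of the 9) for CD11b-high KO against WT cells, 235 to 1305 with age in KO cells, 1069 to 2528 (1 to 4 of the 9) with age in WT cells, and 3 to 35 for the interaction. The lowest counts came without CD11b-low KO replicate 2, 4-week KO replicate 2, CD11b-low KO replicate 3, CD11b-high KO replicate 2, 4-week KO replicate 3, 4-week WT replicate 3 and 4-week KO replicate 3, in that order of comparisons. The 92 calls between the KO fractions thus depend on single libraries: 20 and 21 were left without CD11b-high replicate 2 or 3 and 3 and 2 without CD11b-low replicate 2 or 3.

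The sign changes were all in results that did not pass. Ranges given here run from the lowest to the highest log2 difference over all alternatives. Between genotypes at 12 weeks the genes that changed sign were Zeb2 (-0.116 to 0.161, with 0.003 unfiltered and 0.008 with the groups alone), and at 4 weeks Bhlhe41 (-0.009 to 0.378), Maf (-0.519 to 0.193) and Zeb2 (-0.080 to 0.170). Between the KO fractions they were Cebpa (-0.520 to 0.004), Cebpb (-0.034 to 0.116, and -0.005 unfiltered) and Maf (-0.918 to 0.305). For CD11b-high KO against WT cells they were Pparg (-0.355 to 0.366), Cebpb (-0.921 to 0.005) and Zeb2 (-0.009 to 0.253). With age they were Bhlhe40 (-0.117 to 0.224) and Bhlhe41 (-0.774 to 0.129) in KO cells, and Pparg (-0.229 to 0.492), Cebpb (-0.186 to 0.740), Maf (-0.099 to 1.12) and Klf4 (-0.185 to 0.479) in WT cells. In the interaction they were Pparg (-0.218 to 0.503) and Zeb2 (-0.172 to 0.124).

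With the replicate number as a block, 105 genes and none of the 9 were called between the paired KO fractions, so the block changed no call of the 9 there. In the other comparisons the libraries share only a number. The block gave 1019 genes and 3 of the 9 between genotypes at 12 weeks, where Bhlhe40 passed (1.44, adjusted p = 0.0035 in edgeR) and Zeb2 was at 0.003. It gave 549 genes with age in KO cells, 1 of the 9 with age in WT cells, where Spi1 missed the threshold (0.70, adjusted p = 0.0534 in edgeR), and 0.084 for Pparg in CD11b-high KO against WT cells. The correlations of same-numbered libraries ran between -0.285 and 0.490 in these comparisons, and in none of them did every library correlate best with its own number.

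At the depth of these libraries Maf rests on 5 to 31 counts in each 12-week WT and 6 to 18 in each 4-week library, which limits its fold changes, and 3 pools per group limit all tests.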
